A study of Homo sapiens with 18 samples.

Results

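LRRC32 and 8 genes of activin and transforming growth factor-β (TGF-β) signalling were followed in OVCAR3, an established human cell line of high-grade serous ovarian carcinoma, after the cells had been incubated with antibodies. The 9 genes were LRRC32, TGFB1, TGFB2, INHBA, INHBB, BMP2, GDF15, FST and SMAD7, out of 55765 gene symbols in the count tables. With IgA of no particular specificity, LRRC32 RNA was nearly absent, INHBA and GDF15 were higher by more than an order of magnitude, and INHBB and FST were lower. With IgA against the tetraspanin TSPAN7, in a separate series, INHBA was again higher and INHBB and FST lower than in the untreated cells of that series. The sizes of the changes were not compared between the series. LRRC32 was selected on its low values with non-specific IgA and with TSPAN7 IgA in these libraries. For the other 8 genes the values they were chosen on are not recorded. The values of all 9 with non-specific IgA, and those of LRRC32 with TSPAN7 IgA, are therefore given as description without a test. The remaining comparisons were tested, and whether their values also had a part in the choice of the 8 genes is not known.

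RNA was sequenced in 18 libraries, 3 for each of 6 groups, in 2 series of 9 libraries. In the first series the cells received non-specific IgA, non-specific IgG or no antibody. In the second they received BDNF IgA (against the neurotrophin BDNF), TSPAN7 IgA or no antibody, both IgA preparations coming from immortalised B cells out of ovarian tumours. All cells were grown in RPMI medium with low serum, and antibodies were used at 0.5 µg/ml. The labels give 24 h of incubation, while another description of the experiments gives 8 h. The design asks what IgA changes in tumour cells that carry the polymeric immunoglobulin receptor, beside IgG and beside untreated cells. It also asks whether the target of the IgA matters. The second series, however, holds no non-specific IgA or IgG. Differences from its untreated cells may come from the target, the preparation or IgA of any kind, which cannot be told apart. Between its antibodies, target and preparation cannot be told apart. The model is a single cell line, and the labels do not say whether the replicates were separate cultures, so that p-values measure the spread between these libraries, which may be technical.

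TGF-β, activin and bone morphogenetic protein (BMP) ligands are secreted dimers of one family. They bind pairs of type I and type II receptor kinases, which phosphorylate SMAD transcription factors. TGF-β is secreted in a latent form. LRRC32, also called GARP, is a transmembrane protein that holds latent TGF-β on the cell surface and is best known from regulatory T cells and platelets. INHBA and INHBB encode the β-subunits of activin A and activin B, which act through the same SMADs as TGF-β. Follistatin, the product of FST, binds activins and blocks them. SMAD7 is an inhibitory SMAD that is induced by the pathway and shuts off its receptors, and GDF15 is a distant member of the family known as a stress-induced cytokine.

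The shallowest library held 27920733 counts and the deepest 42371474 among the first 9, against 39254350 and 47381836 among the others. All 12 epithelial markers of OVCAR3 (among them PAX8, MUC16 and EPCAM) were present, with summed levels from 170180 to 271070 normalised counts per library. Of the 6 regulatory T cell markers CD3D and IL2RA were at 0 in every library, as was GP9 of the 4 platelet markers, and the summed levels of these lists were at most 72.9 and 110.6 normalised counts. One library stood apart: non-specific IgA replicate 3 had 19.1% of its counts from the mitochondrial genome, against 5.75% to 8.32% in the other 8 libraries of that series. Replicates scattered more in the first series, where the common dispersion was 0.0307 beside 0.00303.

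Promoter sequence was available for 7 of the 9 genes, as RefSeq windows of 250 bases before and 50 bases after the transcription start (GRCh38.p14). LRRC32 and BMP2 had no window. The last 100 bases before the start are printed for the pair that was highest with IgA relative to IgG, INHBA and GDF15, and for a pair that was lower, INHBB and FST, so that their base composition and short motifs can be set side by side. Capitals mark the letters TATAAA, the core of the box of that name, and GGGCGG, a binding motif of Sp1 factors. Each was searched on both strands, and adjoining matches run together.
INHBA, chr7:41703091-41703190, minus strand: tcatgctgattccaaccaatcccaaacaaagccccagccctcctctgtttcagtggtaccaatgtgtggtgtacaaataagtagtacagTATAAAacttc
GDF15, chr19:18386058-18386157, plus strand: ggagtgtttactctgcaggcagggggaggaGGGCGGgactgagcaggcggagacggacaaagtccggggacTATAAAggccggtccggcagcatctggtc
INHBB, chr2:120346036-120346135, plus strand: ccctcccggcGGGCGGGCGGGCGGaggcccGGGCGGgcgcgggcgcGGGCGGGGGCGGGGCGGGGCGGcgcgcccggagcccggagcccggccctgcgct
FST, chr5:53480529-53480628, plus strand: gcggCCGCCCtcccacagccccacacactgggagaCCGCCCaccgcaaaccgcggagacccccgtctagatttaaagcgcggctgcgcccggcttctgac
GC content of these stretches was 43.0% for INHBA, 64.0% for GDF15, 94.0% for INHBB and 70.0% for FST. The letters TATAAA stood in windows of INHBA, GDF15, TGFB2 and SMAD7, and in 11.5% of all 35116 windows of this length. The letters GGGCGG stood in those of INHBB, FST, GDF15 and TGFB1, and in 44.95% of all windows. The AP-1 letters TGANTCA were found in the FST window, 160 bases before the start, and in 7.71% of all windows. The cyclic AMP response element TGACGTCA and the SMAD palindrome GTCTAGAC, present in 1.85% and 0.202% of all windows, were in none of the windows of the 7 genes.

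In the coordinates of the build used for the counts (GRCh37), all 9 are protein-coding genes. LRRC32 lies at chr11:76368568-76381791 on the minus strand, INHBA at chr7:41706766-41745432 on the minus strand, INHBB at chr2:121103712-121109379 and FST at chr5:52776456-52782964, both on the plus strand. TGFB1 lies at chr19:41807492-41859827 (minus), TGFB2 at chr1:218518678-218617961 (plus), GDF15 at chr19:18485541-18499986 (plus), BMP2 at chr20:6748333-6760893 (plus) and SMAD7 at chr18:46446223-46477335 (minus). Whether reads were counted by strand is not stated, and some exons overlap those of other genes: 87 bases of LRRC32, 215 of TGFB1 (with HNRNPUL1), 701 and 1371 of TGFB2 and 248 of INHBA. The RNA antisense to INHBA, INHBA-AS1, had at most 6.65 normalised counts in any library, where a normalised count is a count scaled to the mean library size of the series.

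The 9 genes covered a wide range of levels in untreated cells. In RPKM, which scales counts to library size and exon length, FST led the first series at 29.5, followed by INHBB at 18.8 and TGFB1 at 18.6, whose ranges over the 3 libraries overlapped. TGFB2 came next at 8.71, then SMAD7 at 2.56 and GDF15 at 1.39. BMP2 at 0.285 and LRRC32 at 0.174 overlapped each other, and INHBA was the lowest at 0.0459. Untreated OVCAR3 cells of the first series thus had INHBB as their main activin β-subunit RNA and follistatin RNA above it. In the untreated cells of the second series TGFB1 led at 34.2, FST at 10.2 and INHBB at 9.55 overlapped, and INHBA (0.344) and LRRC32 (0.301) were again the lowest. The series were processed as separate tables, and levels were not compared between them.

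LRRC32, the tether of latent TGF-β, was nearly absent with non-specific IgA. The raw counts were 0, 1 and 0 in the IgA libraries, 44, 60 and 67 in the IgG libraries and 13, 29 and 55 in the untreated ones. In normalised counts these were 0, 0.999 and 0 with IgA, 41.1, 54.6 and 73.6 with IgG, and 13.5, 24.4 and 44.3 without antibody. Every IgA library was below every other library of the series. The pooled ratio was 140-fold lower with IgA than with IgG (95% counting interval 24.8 to 5569) and 72.2-fold lower than in untreated cells (12.7 to 2880). These intervals rest on 1 count in the IgA libraries and cover counting error only. They leave out the spread between libraries, and reads that carry no molecular identifier may be copies of the same molecule. LRRC32 was selected on these low values, which can inflate both ratios, so the intervals are description and no test. In bulk RNA, fewer cells that express a gene and less RNA per cell cannot be told apart.

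INHBA, the subunit of activin A, and GDF15 had the largest excess with IgA among the 9 genes. INHBA had 211, 179 and 396 normalised counts with IgA, 28, 14.6 and 1.10 with IgG, and 17.7, 20.2 and 2.42 in untreated cells. The log2 fold change was 4.12 against IgG (SE 0.67, 17.3-fold) and 4.29 against untreated cells (SE 0.68, 19.6-fold). Its control libraries were themselves uneven, replicate 3 of both IgG and untreated cells holding 3 counts or fewer. INHBB, the subunit of activin B, went the opposite way. It had 549, 602 and 295 normalised counts with IgA, 1323, 1836 and 2631 with IgG, and 2072, 1840 and 2452 in untreated cells, a log2 fold change of -1.99 (SE 0.26) against IgG and -2.13 (SE 0.26) against untreated cells. The IgA libraries did not overlap the others for either subunit.

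FST followed INHBB. Follistatin RNA stood at 842, 1007 and 619 normalised counts with IgA, at 2350, 2776 and 2876 with IgG and at 3007, 2720 and 2860 without antibody. The log2 fold change was -1.69 (SE 0.15, 3.23-fold lower) against IgG and -1.79 (SE 0.15, 3.47-fold lower) against untreated cells. Non-specific IgA thus coincided with more RNA for activin A and less for activin B and for follistatin. RNA of FSTL3, another protein that binds activins, was higher than with IgG (log2 fold change 1.40, SE 0.25).

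GDF15 was higher in every IgA library, at differing levels. It had 2091, 838 and 1126 normalised counts with IgA, 54.1, 57.4 and 175 with IgG, and 79.9, 79.0 and 147 in untreated cells. Its log2 fold change was 3.85 (SE 0.46, 14.4-fold) against IgG and 3.72 (SE 0.45, 13.2-fold) against untreated cells. The lowest IgA library was still above the highest of the other 6.

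The TGF-β ligands parted. TGFB1 had 4089, 3237 and 5791 normalised counts with IgA against 2309, 2283 and 1626 with IgG and 2146, 2362 and 1925 in untreated cells, a log2 fold change of 1.07 (SE 0.19) against IgG and 1.03 (SE 0.19) against untreated cells. TGFB2 had 1589, 1376 and 1025 with IgA against 1519, 1750 and 2136 with IgG, so that the groups overlapped, and 1678, 1709 and 2185 in untreated cells. Its log2 fold changes were -0.43 (SE 0.17) and -0.48 (SE 0.17). TGFB1 was thus 2.11-fold above IgG, while TGFB2 with IgA lay within or below its range with IgG. BMP2, a ligand of the BMP branch, had 83.0, 103 and 125 with IgA, 62.5, 60.1 and 67.0 with IgG, and 51.9, 22.7 and 32.2 in untreated cells. SMAD7, the inhibitory SMAD, had 825, 659 and 814 with IgA, 418, 353 and 343 with IgG, and 384, 358 and 324 in untreated cells, a log2 fold change of 1.04 (SE 0.15) against IgG and 1.11 (SE 0.15) against untreated cells. For BMP2 the log2 fold changes were 0.71 (SE 0.32) and 1.54 (SE 0.34), and for both genes every IgA library was above every other.

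**Figure D1:**
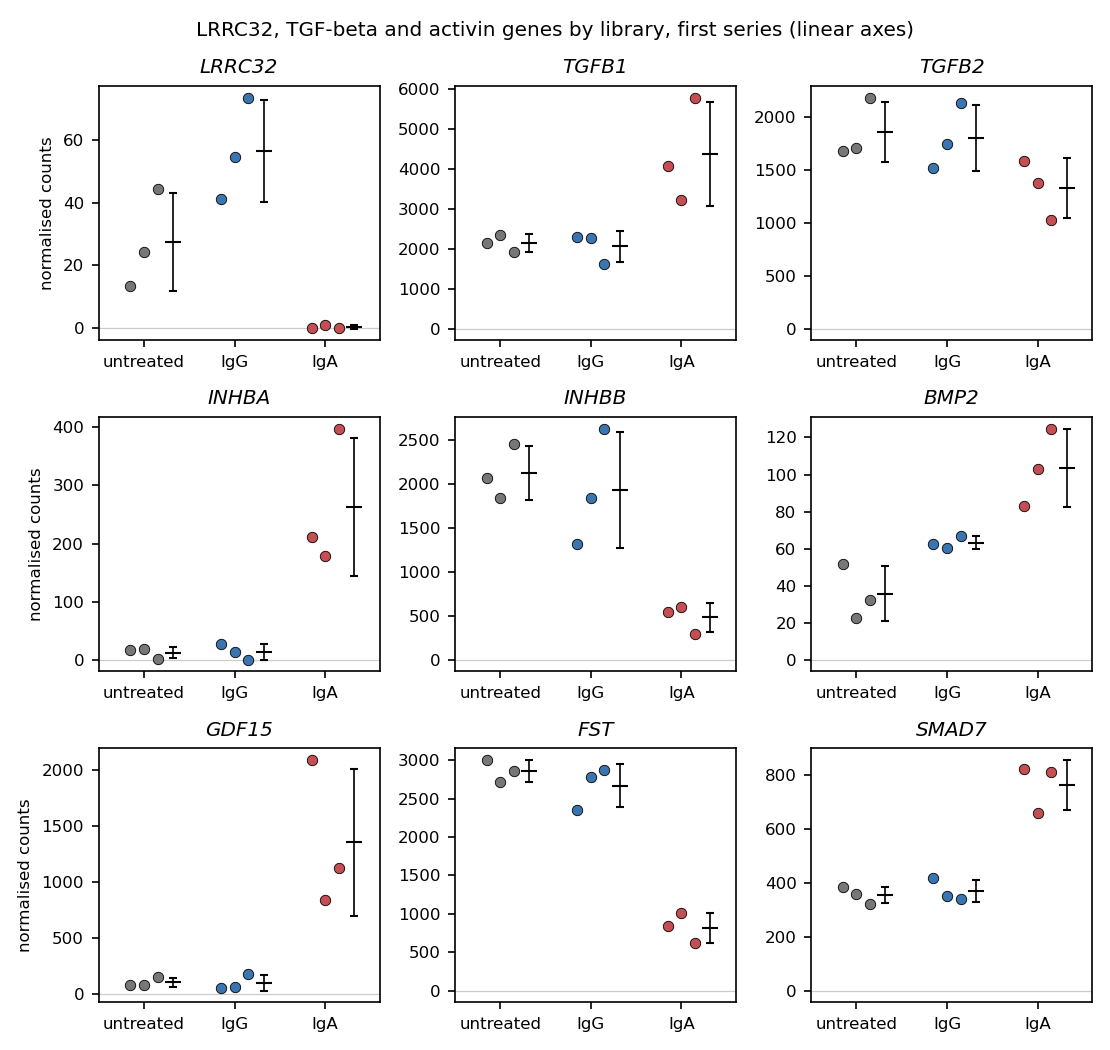
Normalised counts of the 9 genes in each library of the first series (vertical axes, linear, a separate scale for each gene), with untreated cells in grey, non-specific IgG in blue and non-specific IgA in red. Points are libraries and bars are mean ± SD (n = 3). LRRC32 is at or near 0 in the IgA libraries, INHBA and GDF15 are above all others there, and INHBB and FST are below.

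In the fit over all genes, 4 of the 9 lay past the threshold upwards and 3 downwards against IgG, and 5 and 3 against untreated cells. Of all 18012 genes tested, 12.6% were called higher and 11.6% lower with IgA than with IgG (edgeR quasi-likelihood test, adjusted p under 0.05), and 12.9% and 12.1% against untreated cells. Nothing is read from the counts for the 9 genes, since these comparisons may have served to choose them, and both comparisons share the IgA libraries. Leaving out the library with the high mitochondrial share, the log2 fold changes against IgG were 3.69 for INHBA, -1.75 for INHBB, -1.53 for FST, 3.96 for GDF15, 0.82 for TGFB1, 0.99 for SMAD7, 0.56 for BMP2, -0.28 for TGFB2 and -6.45 for LRRC32. Without IgA replicate 2, which holds the single LRRC32 count, the fitted LRRC32 value was -8.82.

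For non-specific IgG no difference of the 9 genes from untreated cells passed the test. None was called by edgeR or by DESeq2, and 0% of all genes were called higher and 0% lower. Without adjustment, 89 of 18012 genes had an edgeR p under 0.05 (139 in DESeq2), among them BMP2 of the 9 by both tools. This is fewer than a threshold of 0.05 would pass with no difference at all, so the test was conservative here. Its estimate of spread was shared with the IgA libraries. With the 6 libraries compared alone, 338 of 17537 genes had an edgeR p under 0.05. The lack of calls therefore does not show that IgG left these genes unchanged. All 3 IgG libraries were above the untreated ones for BMP2 (log2 fold change 0.84, SE 0.33, edgeR adjusted p = 1). LRRC32 went from a mean of 27.4 ± 15.6 normalised counts in untreated cells to 56.4 ± 16.3 with IgG (SD, n = 3), with overlapping libraries (log2 fold change 1.02, SE 0.50, edgeR adjusted p = 1). At each replicate number the IgG library was the higher for this gene, but whether equal numbers mark paired libraries is not stated. The other 7 had log2 fold changes between -0.14 and 0.18. The INHBA value of 0.18 had an SE of 0.75, so that sizeable differences in that gene would not have been detectable.

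The other genes of the pathway were followed through 8 lists of 101 genes, of which 77 were tested in the first series. The lists were drawn up by role from general knowledge, but with earlier results of these data known. Their counts and medians are therefore not independent support for a response of the pathway. With IgA, 26 were called higher and 10 lower than with IgG, and 29 and 9 against untreated cells. Of all genes 12.6% were higher and 11.6% lower than with IgG, and 12.9% and 12.1% against untreated cells. The counts of lower genes were thus near the share of all genes. Scaling by library size alone, which moved the all-gene median (log2) from -0.01 to -0.25 against IgG and from -0.01 to -0.22 against untreated cells, gave 20 higher and 16 lower, and 19 and 13. Without untreated replicate 2 or 3 the total of 38 against untreated cells fell to 25 or 24. No gene of the lists was called with IgG against untreated cells, by edgeR or DESeq2. At an unadjusted p under 0.05 there were 0 of 77 in edgeR and 2 of 94 in DESeq2 (DAND5 and GREM1).

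Genes that TGF-β and activin are known to induce were mostly higher with IgA. Of 13 listed, 11 were called higher and 0 lower than with IgG, with a list median log2 fold change of 1.21 beside -0.01 for all genes, and 12 and 0 against untreated cells (median 1.32). Of all genes 12.6% were called higher and 11.6% lower than with IgG, and 12.9% and 12.1% against untreated cells. With library size alone 9 of the targets were higher in each comparison. SNAI2, a repressor of epithelial genes, had 1570, 1218 and 3357 normalised counts with IgA, 251, 215 and 238 with IgG, and 254, 205 and 209 in untreated cells. Its log2 fold change against IgG was 3.12 (SE 0.30, edgeR adjusted p = 3.29e-05). CDKN1A, the cell cycle inhibitor p21 (1.99, SE 0.26), the matricellular gene CTGF (1.97, SE 0.20) and the transcriptional repressor BHLHE40 (1.95, SE 0.22) rose by close amounts. All IgA libraries were above all others for these 4 genes, and their calls held whichever library was left out.

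Of 6 targets of the BMP branch, 3 were called higher in both comparisons and 0 lower, where 12.6% and 12.9% of all genes were higher. These were the ID genes ID1, ID3 and ID4, inhibitors of differentiation. Against untreated cells the log2 fold changes were 1.96 for ID4 (SE 0.19, edgeR adjusted p = 2.73e-05) and 1.93 for ID3 (SE 0.20, adjusted p = 4.63e-05). The median of the list was 0.96 against IgG and 1.01 against untreated cells.

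Of 10 genes that store and activate TGF-β, 4 were called higher than with IgG and 1 lower. Of all genes 12.6% were called higher and 11.6% lower, so that the 1 lower gene was near that share. THBS1 encodes thrombospondin 1, an activator of latent TGF-β. It had 21308, 30826 and 28018 normalised counts with IgA, 8837, 4664 and 2950 with IgG, and 3595, 4940 and 3107 in untreated cells (log2 fold change against IgG 2.28, SE 0.31, edgeR adjusted p = 0.000335). FURIN, a protease that cuts TGF-β precursors, and the integrin chains ITGAV and ITGB6 were also higher. LTBP3, a latent TGF-β binding protein, was lower. The calls of ITGAV, ITGB6 and LTBP3 were lost in 5, 4 and 3 of the 6 fits with 1 library left out.

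A minority of the family's other ligands and receptors was called lower, where 11.6% of all genes were lower than with IgG. Of 10 ligands tested, BMP7, GDF11 and AMH were called lower with IgA and 0 were called higher, with a list median of -0.92 against IgG and -0.83 against untreated cells. BMP7 was the most abundant, with 5632, 5066 and 3606 normalised counts with IgA, 9365, 11205 and 12184 with IgG, and 11349, 10774 and 12075 in untreated cells (log2 fold change against IgG -1.19, SE 0.15, edgeR adjusted p = 0.000173). The AMH call against IgG was lost in 5 of 6 fits with 1 library left out (adjusted p up to 0.135) and the GDF11 call in 2, so that 1 or 2 ligands were called lower without an IgG library. Without IgG replicate 3, 1 ligand was called higher and 1 lower. With library size alone 6 were lower. Of 13 receptors, the activin type II receptors ACVR2A (-0.83, SE 0.16) and ACVR2B (-0.68, SE 0.21) and the TGF-β co-receptor TGFBR3 (-0.62, SE 0.14) were lower than with IgG. The ACVR2B call was lost in 4 of 6 such fits. Against untreated cells the BMP type II receptor BMPR2 was called higher (0.37, SE 0.12, edgeR adjusted p = 0.0352). These ligands and receptors, other than those the rule on size named, were picked out after their values were seen.

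Inside the cell the pathway's SMADs and inhibitors were partly higher. SMAD3, which carries TGF-β and activin signals to the nucleus, had 6874, 6748 and 6742 normalised counts with IgA, 4134, 3800 and 3695 with IgG, and 3402, 3921 and 3951 in untreated cells, and SMAD9 was the other of 6 SMADs called higher than with IgG, a call lost in 3 of the 6 such fits. Of 11 intracellular and membrane inhibitors 4 were higher and 2 lower. In the same comparison 12.6% of all genes were called higher and 11.6% lower. BAMBI, a decoy receptor, had a log2 fold change of 2.75 (SE 0.38), and PMEPA1, TGIF1 and SKIL were the others that were higher. Of 8 extracellular antagonists FSTL3, which like follistatin binds activins, was higher (1.40, SE 0.25, edgeR adjusted p = 0.002), while FST itself was lower. BMPER was higher and NOG lower, and both calls were lost in some fits with 1 library left out (BMPER in 2 of 6, NOG in 5 of 6).

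Some markers of other cell types and of the epithelium were called with IgA. The summed level of the 5 fibroblast markers was 2062 to 2458 normalised counts in IgG and untreated libraries and 2394 to 4875 with IgA, with 2 of 3 tested called higher than with IgG and 0 against untreated cells. COL3A1, a collagen gene of that list, was at 0 in all 3 untreated libraries and was detected in both the IgA and the IgG group. Of 2 endothelial markers tested, 1 was called higher with IgA than in untreated cells and 0 than with IgG. Of the 12 epithelial markers 2 were higher and 4 lower with IgA in both comparisons. Of all genes 12.6% were called higher and 11.6% lower than with IgG, and 12.9% and 12.1% against untreated cells. With so few markers tested, nothing is read from their counts. The part of these markers in the results with IgA was not tested.

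**Figure D2:**
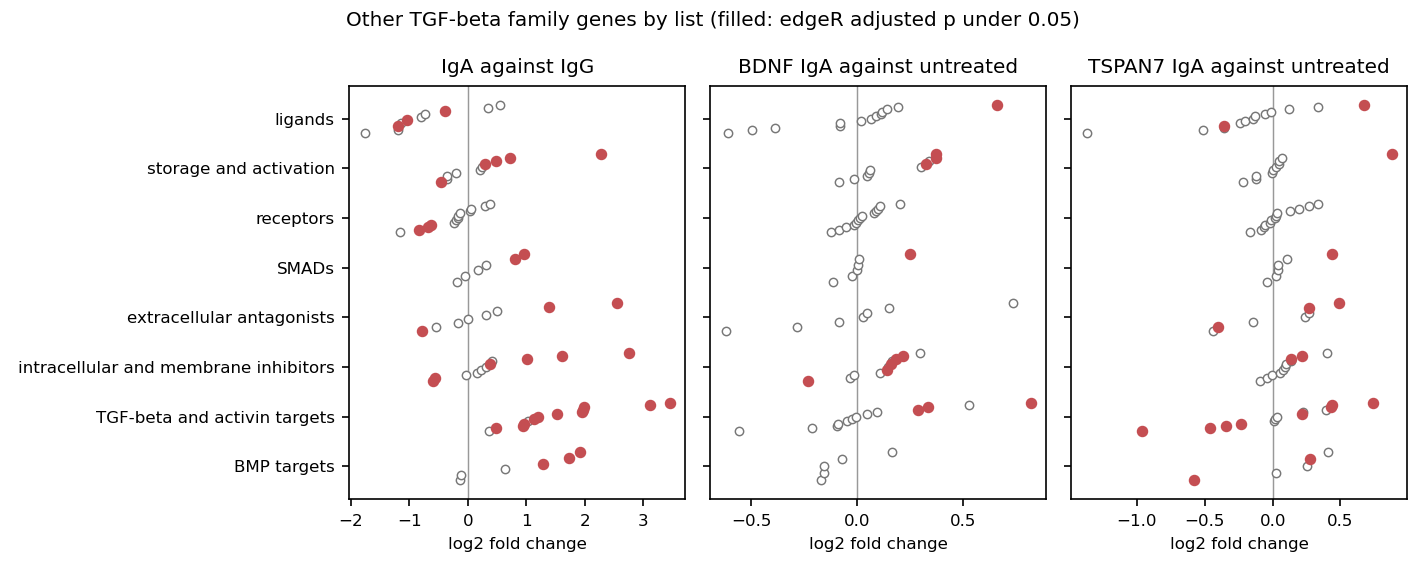
Log2 fold changes (horizontal axes, scales differ between panels) of the other pathway genes, grouped by list, for IgA against IgG, BDNF IgA against untreated cells and TSPAN7 IgA against untreated cells. Each point is a gene, and red points have an edgeR adjusted p under 0.05. In the IgA panel 11 of the 13 TGF-β and activin targets are red and to the right, in the TSPAN7 IgA panel 4 are to the right and 4 to the left.

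TSPAN7 IgA moved the activin genes. INHBA rose, and FST, INHBB and TGFB2 fell against untreated cells, which is 1 gene higher and 3 lower of the 8 tested, where 4.46% of all 18732 genes were called higher and 4.08% lower. INHBA had 270, 266 and 349 normalised counts with TSPAN7 IgA and 112, 126 and 124 without antibody. The log2 fold change was 1.28 (SE 0.18, 2.43-fold, edgeR adjusted p = 8.08e-05). FST had 761, 676 and 663 normalised counts against 1182, 1113 and 1266 (log2 fold change -0.76, SE 0.08, edgeR adjusted p = 2.56e-06). The smallest untreated value of follistatin RNA was well above the largest one with the antibody.

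INHBB had 918, 882 and 820 normalised counts with TSPAN7 IgA against 1197, 1236 and 1461 in untreated cells (log2 fold change -0.57, SE 0.10, edgeR adjusted p = 0.000467). TGFB2 had 1144, 1157 and 1174 against 1453, 1423 and 1505, a fall of 1.26-fold (log2 fold change -0.33, SE 0.07, edgeR adjusted p = 0.00213). For these 4 genes the groups did not overlap, and the calls held whichever library was left out. LRRC32, whose values with this antibody had served to choose it, had 16.0, 17.9 and 32.5 normalised counts against 57.7, 52.6 and 60.5 (log2 fold change -1.37, SE 0.31). It was present in every TSPAN7 IgA library.

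Of the other members, TGFB1, BMP2, GDF15 and SMAD7 did not pass the test with TSPAN7 IgA. GDF15 had 153, 104 and 116 normalised counts against 103, 75.9 and 109 (log2 fold change 0.37, SE 0.24, edgeR adjusted p = 0.407). SMAD7 had 911, 929 and 899 against 798, 905 and 882 (0.08, SE 0.07, edgeR adjusted p = 0.527). TGFB1 lay between 4132 and 4842 with the antibody and between 4538 and 5082 without, and BMP2 between 180 and 212 and between 172 and 186. The groups overlapped for all 4.

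BDNF IgA gave a different list. GDF15 alone of the 9 was called against untreated cells, where 4.49% of all genes were called higher and 3.18% lower. It had 129, 144 and 280 normalised counts with BDNF IgA and 103, 75.9 and 109 without antibody (log2 fold change 0.94, SE 0.23, edgeR adjusted p = 0.0153). The groups did not overlap, but BDNF IgA replicate 3 was far above the other libraries, and the call was lost without it (log2 fold change 0.50, edgeR adjusted p = 0.178) and without untreated replicate 2 (0.80, adjusted p = 0.0904).

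The activin genes were not called with BDNF IgA. INHBA had 166, 202 and 97.9 normalised counts with the antibody, around the untreated values (log2 fold change 0.36, SE 0.19, edgeR adjusted p = 0.293), and BDNF IgA replicate 3, the lowest, decided this: without it the log2 fold change was 0.60 with an adjusted p of 0.027. INHBB had 1431, 1176 and 1642 (0.12, SE 0.09, edgeR adjusted p = 0.469), and without BDNF IgA replicate 2 its log2 fold change was 0.24 (adjusted p = 0.0315). FST had 1200, 943 and 1016 (-0.17, SE 0.08, edgeR adjusted p = 0.207). LRRC32 had 44.5, 25.0 and 52.3, all below the lowest untreated library at 52.6, the highest of them narrowly, and did not pass the test (-0.49, SE 0.28, edgeR adjusted p = 0.334). TGFB1, TGFB2, BMP2 and SMAD7 had log2 fold changes between -0.04 and 0.24.

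**Figure D3:**
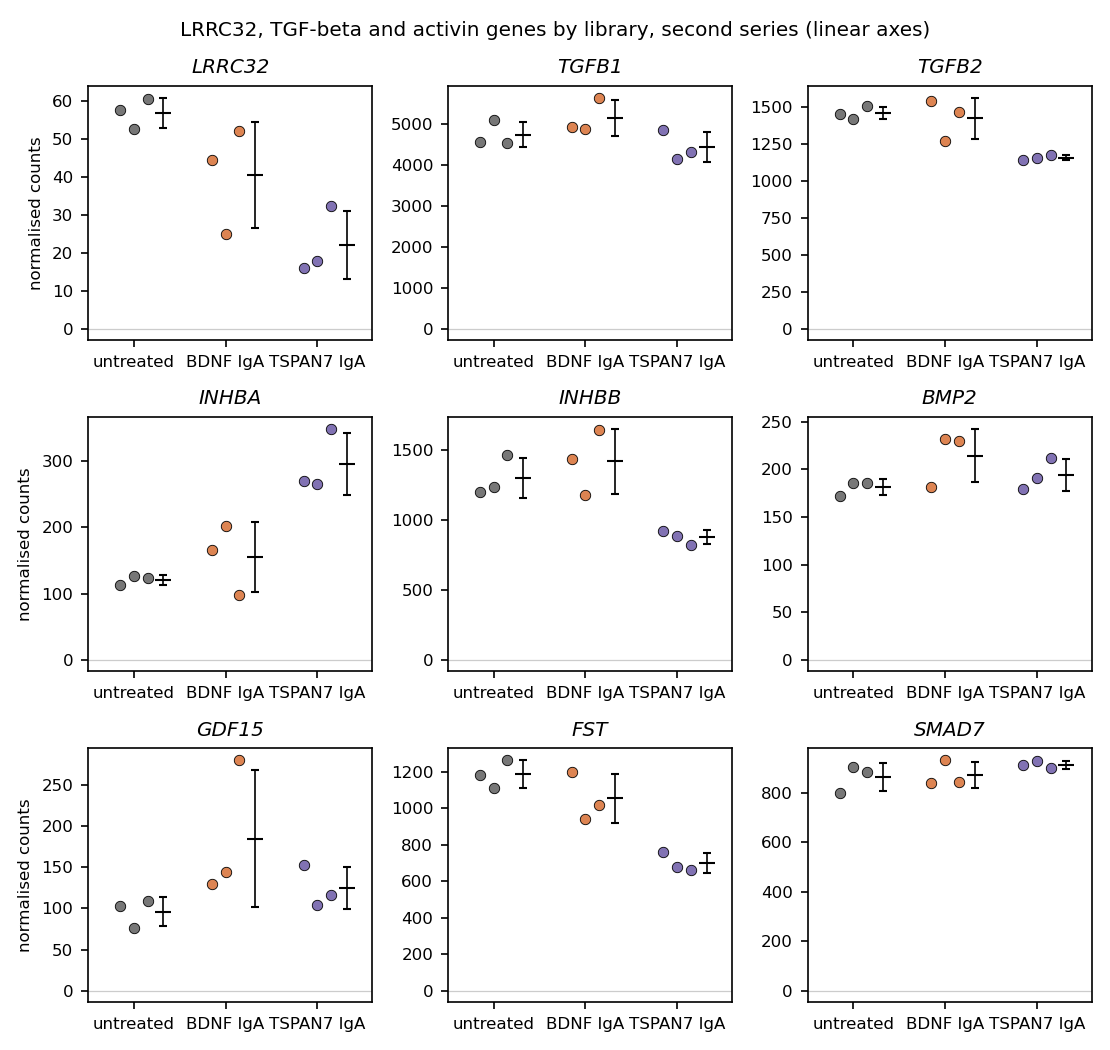
Normalised counts of the 9 genes in each library of the second series (vertical axes, linear, a separate scale for each gene), with untreated cells in grey, BDNF IgA in orange and TSPAN7 IgA in purple. Points are libraries and bars are mean ± SD (n = 3). The TSPAN7 IgA libraries are above all others for INHBA and below all others for INHBB, FST and TGFB2.

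The antigen-specific antibodies were compared directly, over libraries that the comparisons with untreated cells also use. With TSPAN7 IgA, INHBA was higher than with BDNF IgA, and INHBB, FST, TGFB2 and TGFB1 were lower, which is 1 higher and 4 lower of the 8 tested, where 3.42% of all genes were called higher and 4.5% lower. The log2 fold change was 0.93 for INHBA (SE 0.18, edgeR adjusted p = 0.00248), -0.70 for INHBB (SE 0.10, adjusted p = 0.000129) and -0.59 for FST (SE 0.08, adjusted p = 0.000193). All TSPAN7 IgA libraries lay beyond the BDNF IgA libraries for these 3 genes. TGFB2 was lower too (-0.30, SE 0.07, edgeR adjusted p = 0.007), a call that was lost without BDNF IgA replicate 1 (adjusted p = 0.0655).

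For TGFB1 the value was -0.21 (SE 0.06, edgeR adjusted p = 0.0404), with 4842, 4132 and 4321 normalised counts against 4921, 4862 and 5637. This call was lost without BDNF IgA replicate 1 or 3 (adjusted p = 0.0648 and 0.271) and without TSPAN7 IgA replicate 2 or 3 (0.238 and 0.142). GDF15 differed by -0.57 (SE 0.23, edgeR adjusted p = 0.136) and passed without BDNF IgA replicate 2 (adjusted p = 0.0208) and with no filter on low counts (0.00554). BMP2 and SMAD7 differed by -0.15 and 0.07 and did not pass. LRRC32 was 16.0, 17.9 and 32.5 against 44.5, 25.0 and 52.3, with overlap.

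**Figure D4:**
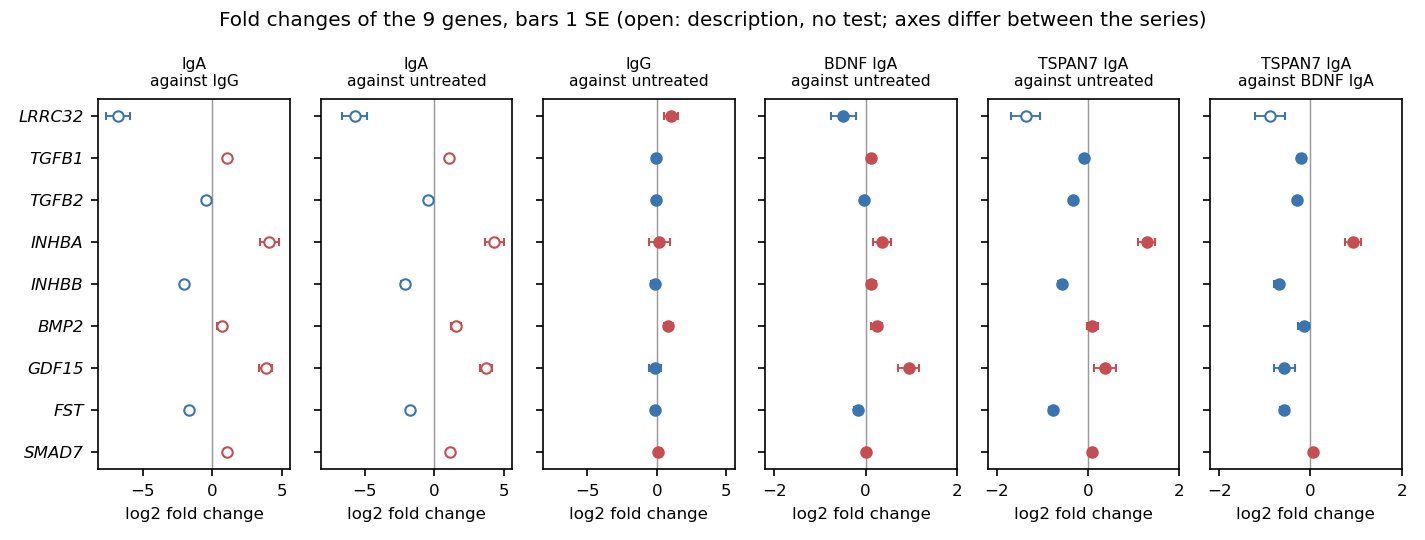
Log2 fold changes (horizontal axes, which differ between the series) of the 9 genes in the 6 comparisons, with bars of 1 SE, red above 0 and blue below. Open points are values that had served, or may have served, to choose the genes and were not tested. INHBA lies to the right and INHBB and FST to the left with non-specific IgA and with TSPAN7 IgA. With IgG the values lie between -0.14 and 1.02.

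The same lists were followed in the second series. With TSPAN7 IgA, 12 of 78 other pathway genes tested were called higher and 7 lower than in untreated cells. Of all genes 4.46% were called higher and 4.08% lower. The 13 TGF-β and activin targets divided into 4 higher and 4 lower, with a list median of 0.03 beside 0.00 for all genes. FN1, fibronectin, was among the higher, with 5548, 5433 and 4890 normalised counts against 4115, 3811 and 3790 (log2 fold change 0.44, SE 0.07, edgeR adjusted p = 0.000266). SNAI2 (-0.34, SE 0.07), BHLHE40 (-0.23, SE 0.05), ANGPTL4 and NEDD9 were lower. Without TSPAN7 IgA replicate 2 the total of 19 fell to 8, with 2 targets higher and 0 lower, and without untreated replicate 3 it fell to 11.

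Several genes named above for non-specific IgA were called with TSPAN7 IgA too. THBS1 had 9538, 11547 and 8515 normalised counts against 5568, 5572 and 4970 in untreated cells (log2 fold change 0.88, SE 0.16, edgeR adjusted p = 0.00145). FSTL3 was higher (0.49, SE 0.09), as was SMAD3 (0.43, SE 0.04), and BMP7 was lower (-0.36, SE 0.07). INHBE, a further activin subunit, had 94.9, 82.2 and 112.6 against 49.6, 62.7 and 68.6 (0.67, SE 0.19, edgeR adjusted p = 0.0295), and the BMP target HEY1 was lower by -0.58 (SE 0.15). INHBE and HEY1 were not called with non-specific IgA, where HEY1 had a log2 fold change of 0.57 against untreated cells. With TSPAN7 IgA the INHBE and HEY1 calls were each lost in 4 of 6 fits with 1 library left out, and those of ANGPTL4 and NEDD9 in 3. The immune cell marker PTPRC was 1 of 2 regulatory T cell list genes tested and was called higher with TSPAN7 IgA. CD3D, CD3E and IL2RA were at 0 in those libraries. Of the 12 epithelial markers 1 was higher and 3 lower with TSPAN7 IgA than in untreated cells, beside 4.46% and 4.08% of all genes. With BDNF IgA 5 were higher and 0 lower, beside 4.49% and 3.18% of all genes. The direct comparison of TSPAN7 IgA against BDNF IgA had 1 higher and 6 lower, beside 3.42% and 4.5% of all genes. The part of these markers in the results was not tested.

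With BDNF IgA, 12 of the 78 were called higher and 1 lower, where 4.49% of all genes were called higher and 3.18% lower. FN1 led, with 6987, 5996 and 7725 normalised counts against 4115, 3811 and 3790 (log2 fold change 0.82, SE 0.07, edgeR adjusted p = 4.24e-08). The latent TGF-β binding proteins LTBP1 (0.37, SE 0.07), LTBP4 (0.37, SE 0.08) and LTBP3 (0.33, SE 0.07) were higher, as were INHBE (0.66, SE 0.19), TGFBI (0.34, SE 0.09), CDKN2B (0.29, SE 0.07) and SMAD3 (0.25, SE 0.04). PMEPA1 was the gene called lower (-0.23, SE 0.05). The total of 13 fell to 7 without BDNF IgA replicate 1 or 3 or untreated replicate 1 or 2, and rose to 22 without BDNF IgA replicate 2. The INHBE and TGFBI calls were among those lost in 4 of 6 such fits.

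The latent TGF-β binding proteins differed between the antigen-specific antibodies. Against BDNF IgA, TSPAN7 IgA had 7 of 78 pathway genes higher and 10 lower, where 3.42% of all genes were called higher and 4.5% lower. Of the 10 storage and activation genes 4 were lower, namely LTBP1, LTBP2, LTBP3 and LTBP4. LTBP1 had 4175, 3574 and 3863 normalised counts with TSPAN7 IgA and 5944, 4973 and 6577 with BDNF IgA (log2 fold change -0.59, SE 0.07, edgeR adjusted p = 5.04e-05). Values for LTBP3 were -0.45 (SE 0.07, adjusted p = 0.000398) and for LTBP2 -0.47 (SE 0.13, adjusted p = 0.03). CTGF (0.52, SE 0.10), FSTL3 (0.45, SE 0.09), THBS1 (0.57, SE 0.16) and ID3 (0.48, SE 0.13) were higher, and BMP7 was lower (-0.42, SE 0.07). The total of 17 fell to 7 without BDNF IgA replicate 1 or TSPAN7 IgA replicate 2 and to 8 without BDNF IgA replicate 3, and the calls of LTBP2, LTBP4, THBS1 and ID3, whose groups overlapped, were each lost in 4 of 6 fits with 1 library left out.

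The balance of the activin subunits can be read within a library, where scaling plays no part. Per exon base, INHBA stood at 0.330%, 0.424% and 0.0382% of INHBB in the untreated libraries of the first series and at 0.819%, 0.307% and 0.0162% with IgG, but at 14.8%, 11.5% and 51.9% with IgA. INHBB thus exceeded INHBA in every library, by the smallest margin in the IgA library with the high mitochondrial share. In the second series the ratio was 3.63%, 3.96% and 3.28% in untreated cells, 4.48%, 6.64% and 2.31% with BDNF IgA and 11.4%, 11.7% and 16.5% with TSPAN7 IgA. INHBA stood at 5.90% to 21.3% of FST with IgA against 0.0127% to 0.396% in the other libraries of the first series. It stood at 11.8% to 17.5% of FST with TSPAN7 IgA against 3.16% to 7.11% in the others of the second. These ratios were picked after the values of both genes were seen and are given without a test.

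**Figure D5:**
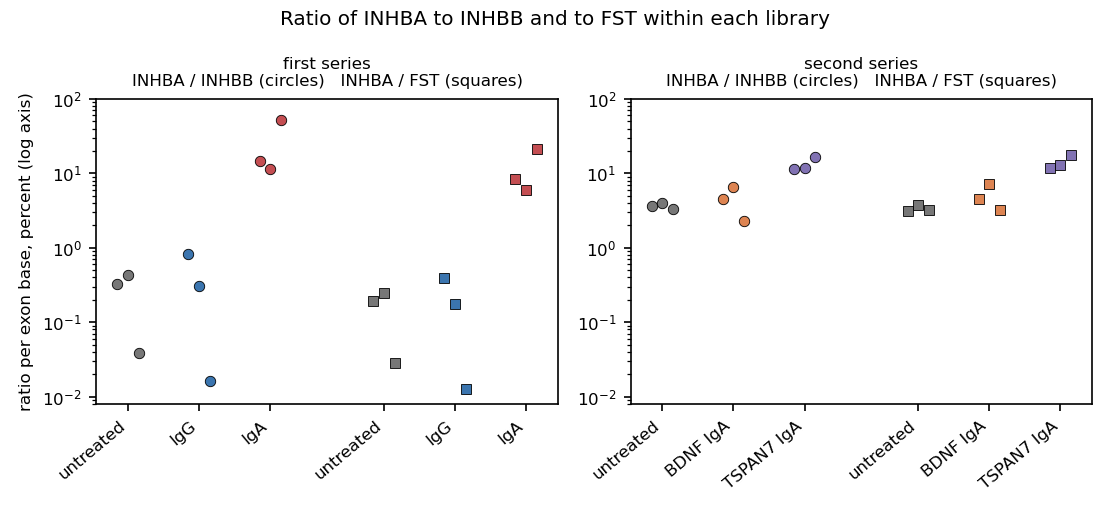
Ratio of INHBA to INHBB (circles) and of INHBA to FST (squares) per exon base in each library, in percent on a log axis, for both series. The IgA and TSPAN7 IgA libraries have the highest ratios of their series, up to 51.9% and 17.5%.

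The genes whose pattern was most like that of a member were found over 13672 genes tested in both series, as the distance between their 4 log2 fold changes against untreated cells (IgA, IgG, BDNF IgA and TSPAN7 IgA, from log2 CPM). Closest to INHBA were TNFAIP3 (distance 0.583), EREG (0.730), BIRC3 (0.914) and CXCL3 (0.952), where the median distance over all genes was 4.51. Closest to GDF15 were IRAK2 (0.501), CXCL3 (0.523), BIRC3 (0.537), TNFAIP3 (0.711) and DUSP5 (0.849), with a median of 3.78. TNFAIP3, BIRC3 and CXCL3 were thus near both INHBA and GDF15. LRRC32 had no neighbour as close: RP11-174G6.5 (1.36), PPP1R3G (1.39), MT-TQ (1.43), RP11-1246C19.1 (1.48) and PPP1R16B (1.52) came first, with a median of 3.99. The distances are a description over 4 group differences that share untreated libraries within a series. Those of LRRC32 rest on low counts. With the prior count its difference with non-specific IgA was -3.54, beside -5.75 in the fit, and its difference with IgG, 1.09, came from overlapping libraries.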

How the data were processed

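Total RNA of OVCAR3 cells was sequenced after antibody treatment. The authors trimmed paired-end reads, aligned them with STAR to GRCh37 and counted uniquely aligned reads per gene. The submitters' processing notes name bcl2fastq 2.20.0.422, cutadapt 1.8.1 and HTSeq 0.6.1, while the methods name featureCounts, and strand use was not stated. What the authors deposited is raw counts. In the table of the second series, rows numbering 2055 that repeated another row exactly were left out, none of them a member. Incubation was 24 h per the labels and 8 h in another description.

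Groups came from the sample titles. Each series was fitted with its 9 libraries with edgeR 4.0.16 in R 4.3.3 by its two-sided quasi-likelihood test, after filterByExpr and TMM scaling, with Benjamini-Hochberg adjustment over all genes of a comparison and a threshold of 0.05. All 9 members passed the filter in both series. The SE was taken as the size of the log2 fold change over √F. The fit was tested on simulated data. The members and lists were chosen with earlier results of these data known. In each comparison the 8 called pathway genes with the largest changes were named, if either group averaged 50 normalised counts or more. Patterns were compared for genes with at least 50 normalised counts in a group of each series (prior count 2), and the 5 nearest were named. One gene that these rules select is not reported here. Alternatives were DESeq2 1.42.0, other scalings and filters, fewer libraries, a stricter threshold, a replicate block and leaving out each library.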

Additional observations from a re-analysis of the deposited data

Results flagged for a closer look

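The responses to TSPAN7 IgA and BDNF IgA differed for 5 of the 8 genes tested, by a direct test between those libraries (edgeR, adjusted p under 0.05). Of all genes 3.42% were called higher and 4.5% lower in this test. INHBA was higher with TSPAN7 IgA by a log2 fold change of 0.93, which all 3 TSPAN7 IgA libraries showed. INHBB, FST, TGFB2 and TGFB1 were lower, with log2 fold changes of -0.70, -0.59, -0.30 and -0.21. In each of the 5 genes the libraries of the groups did not overlap, and the share of all genes without overlap was not counted. INHBA, INHBB and FST passed whichever library was left out, while the TGFB2 and TGFB1 calls were lost in 1 and 4 of the 6 such fits.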

How the results depend on the processing

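With non-specific IgA, and for LRRC32 with TSPAN7 IgA, no log2 fold change of the 9 genes changed direction under any alternative run. With library size alone SMAD7 against IgG was 0.80. At an adjusted p under 0.01 the other pathway genes called numbered 22 for IgA against IgG, 22 for IgA against untreated cells, 7 for BDNF IgA, 10 for TSPAN7 IgA and 8 for TSPAN7 IgA against BDNF IgA. At 0.05 the totals were 36, 38, 13, 19 and 17. At 0.05 and with the 6 libraries compared alone they were 28, 28, 10, 26 and 11, and leaving out each library in turn gave 24 to 35, 24 to 33, 7 to 22, 8 to 16 and 7 to 22. With IgG against untreated cells the direction depended on single libraries. The log2 fold changes ranged from -0.13 to 0.10 for TGFB1, -0.18 to 0.085 for TGFB2, -0.67 to 0.68 for INHBA, -0.43 to 0.074 for INHBB, -0.88 to 0.24 for GDF15 and -0.029 to 0.12 for SMAD7. With BDNF IgA they ranged from -0.10 to 0.038 for TGFB2 and from -0.038 to 0.054 for SMAD7. The cause was not tested.

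Whether equal replicate numbers mark paired libraries is not stated. Deviations of libraries with the same number correlated between -0.07 and 0.25 in the first series and between -0.02 and 0.09 in the second. The highest value was that of replicate 3 of untreated cells and IgG. In both of these groups replicate 3 was the lowest library for INHBA, TGFB1 and SMAD7. It was the highest for INHBB, GDF15, TGFB2 and LRRC32, while FST and BMP2 did not rank alike. The cause was not tested. With the replicate block 36, 38, 14, 21 and 19 pathway genes were called, and no call of the tested members changed. With few counts, as for LRRC32 and INHBA in the first series, depth limits precision.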
